A study of Mus musculus with 15 samples.

Results

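Transcripts of 10 genes of ion channels, water channels and a channel regulator that move fluid across the uterine lining were followed in mouse endometrial organoids. These were the chloride and bicarbonate channel gene *Cftr*, the epithelial sodium channel genes *Scnn1a*, *Scnn1b* and *Scnn1g*, the aquaporin genes *Aqp3*, *Aqp5* and *Aqp8*, the chloride channel genes *Ano1* and *Clic6*, and *Clca1*, whose product raises chloride currents. They were chosen by name, with earlier results of these data known, and 10 of 10 were found among the 16729 genes of the expression table. Shares of all genes given beside counts of the 10 are therefore a description and no test of the set. The organoids are bodies of uterine epithelial cells grown in Matrigel. Every mouse carried floxed alleles of both *Smad2* and *Smad3* (Smad2flox/flox; Smad3flox/flox). The control + vehicle group (n = 3) received the solvent DMSO, and the control + A83-01 group (n = 4) received A83-01, which blocks the TGFβ and activin type I receptors ALK4, ALK5 and ALK7. The *Smad2/3* cKO group (n = 4) carried in addition the Ltfcre/+ allele and received DMSO, and the *Smad2/3* cKO + A83-01 group (n = 4) carried that allele and received A83-01. *Ltf*-cre is expressed from the lactoferrin gene, which is active in the uterine epithelium of adult females and rises with estrogen, so recombination is confined to cells in which that gene has been on. The age of each mouse is not given in the labels.

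The fluid in the uterine lumen is set by the balance of secretion and absorption in the epithelium. CFTR lets chloride and bicarbonate leave the cell into the lumen, and water follows. ENaC, a channel built of α, β and γ subunits encoded by *Scnn1a*, *Scnn1b* and *Scnn1g*, takes sodium up from the lumen and draws fluid back. Aquaporins let water pass along the osmotic gradient these channels set, and in rodents the uterine fluid is enlarged under estrogen and absorbed around the time of embryo attachment. The comparisons ask how the receptor inhibitor and the loss of *Smad2* and *Smad3*, which act downstream of those receptors, alter transcripts in the same kind of culture.

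Values are normalized counts, that is, read estimates for each gene scaled by a size factor of that sample. They summed to between 20241771 and 24423127 per sample. Differences are log2 fold changes of the normalized count plus 1, and a gene was called changed when its limma adjusted p was below 0.01 and it differed by more than 1.4-fold. The 7 epithelial markers summed to 160043 to 199339 in control + vehicle, with 114045 to 171159 after A83-01. The sum in *Smad2/3* cKO samples was 94425 to 143477, and 93250 to 129624 where A83-01 was added. From control + vehicle to *Smad2/3* cKO the median of *Krt8* went from 43440 to 14467. *Krt18* went from 44466 to 28499, *Krt19* from 30821 to 8341 and *Cdh1* from 14498 to 11519. The medians of *Epcam* (22832 to 25214), *Pax8* (5240 to 7897) and *Esr1* (3938 to 4728) went up instead. The 3 smooth muscle markers in the table, of 4 listed, summed to 55.1 to 192 in control + vehicle and to 13.1 to 38.7, 5.75 to 23.1 and 10.8 to 43.5 in the other groups. The 5 stromal markers in the table, of 6 listed, summed to at most 189 in any sample, and the 2 endothelial markers in the table, of 4, to at most 27.6. The 5 leukocyte markers, nearly all *Cd14* and *Cd68*, summed to 33925 to 50027 in control + vehicle and to 9637 to 49161 elsewhere. *Ptprc*, a leukocyte gene, was at 12.5 to 38.5 in control + vehicle and at 68.5 to 514 in the other groups. *Smad2/3* cKO replicate 2 stood apart, with the macrophage genes *Adgre1* at 351 and *Lyz2* at 3372, against at most 9.01 and 86.9 elsewhere. The part of these marker genes in the results was not tested, and in such bulk samples fewer cells of a type cannot be told from less RNA per cell. *Smad2* was at 1045 to 1335 in control + vehicle and at 821 to 924 in *Smad2/3* cKO organoids, and *Smad3* at 1532 to 1741 and 1170 to 1977. These values cover whole genes and do not separate the deleted exons.

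In control organoids A83-01 raised *Aqp8* and lowered *Clic6*. Of the 10 genes, 1 was higher and 1 lower past the thresholds, where 2.27% of all 13009 genes tested were called, 1.19% higher and 1.08% lower. The groups did not overlap for 7 of the 10, 3 of them higher (*Aqp8*, *Aqp5*, *Scnn1b*) and 4 lower (*Cftr*, *Clic6*, *Clca1*, *Ano1*), as against 21.7% of all genes, 10.3% higher and 11.5% lower. Loss of *Smad2* and *Smad3* raised *Aqp8* and lowered *Cftr* and *Clic6*, which made 3 of 10 genes called where 7.38% of 13149 genes were, 4.08% higher and 3.3% lower. In that comparison the groups did not overlap for 5 genes, *Aqp8* and *Aqp5* higher and *Cftr*, *Clic6* and *Clca1* lower, beside 30.8% of all genes, 14.8% higher and 16% lower. Both comparisons share the control + vehicle samples, and are not independent of each other. Since the 10 genes were chosen with earlier results known, these counts do not show that the set changed more than other genes. The ENaC subunits passed in neither.

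**Figure D1:**
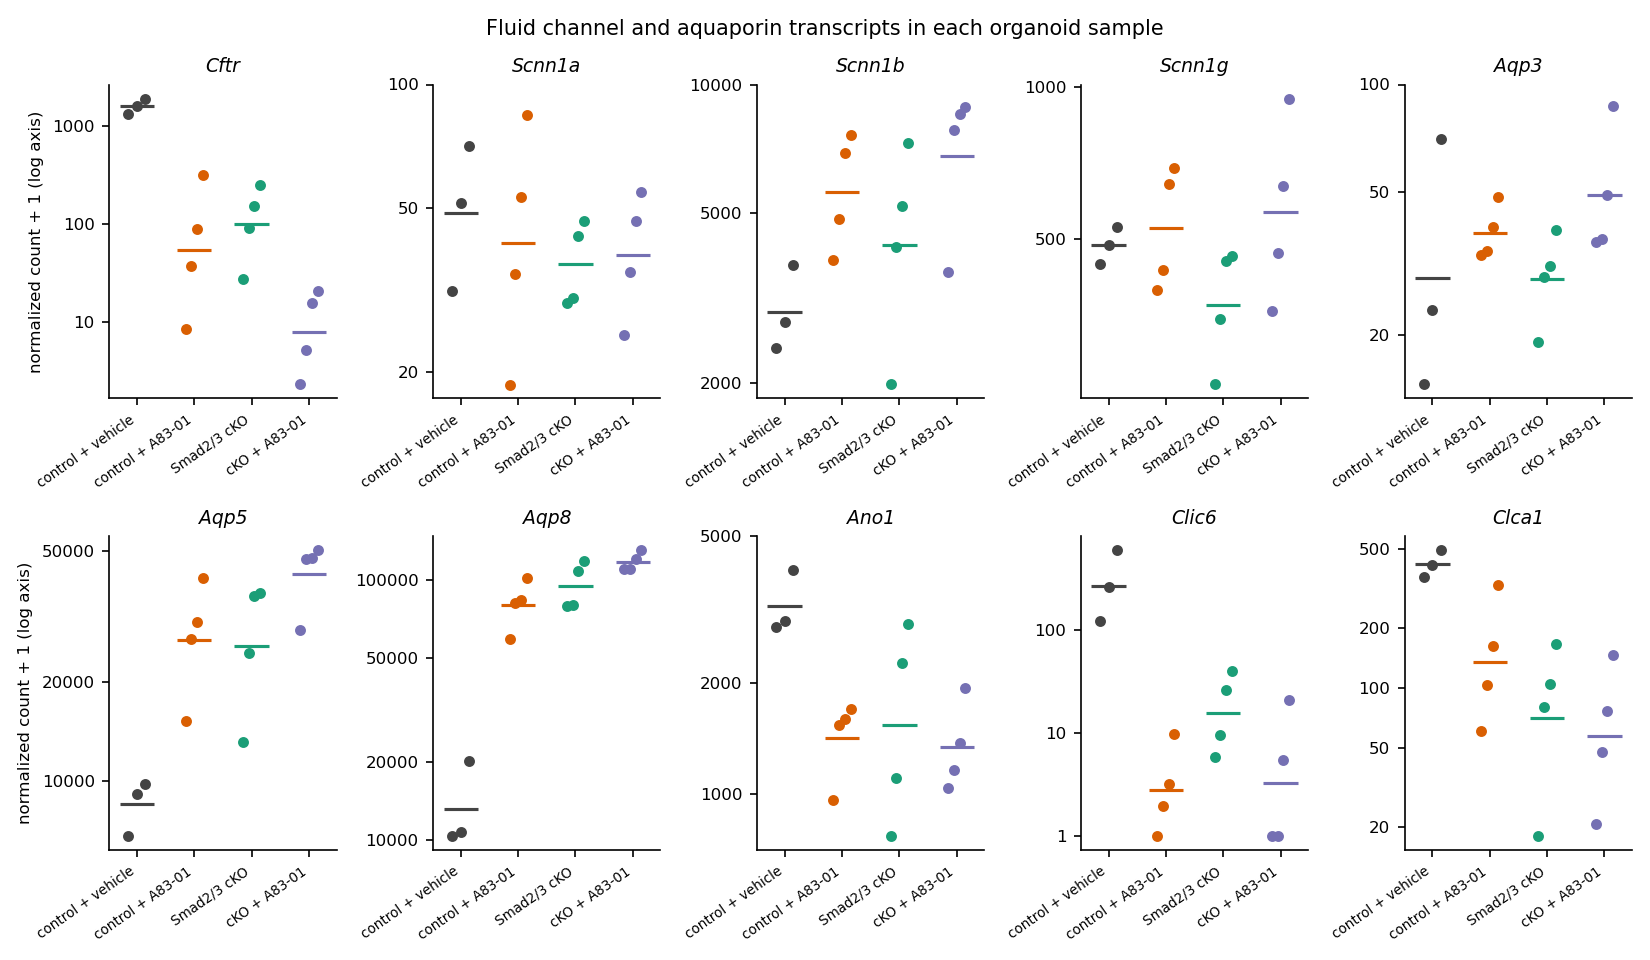
Normalized count plus 1 (log axis, its range set per gene) of the 10 genes in each of the 15 samples, by group. Points are samples and bars are means of the log2 values. Control + vehicle samples sit above all others for *Cftr*, *Clic6* and *Clca1* and below all others for *Aqp8* and *Aqp5*.

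**Figure D2:**
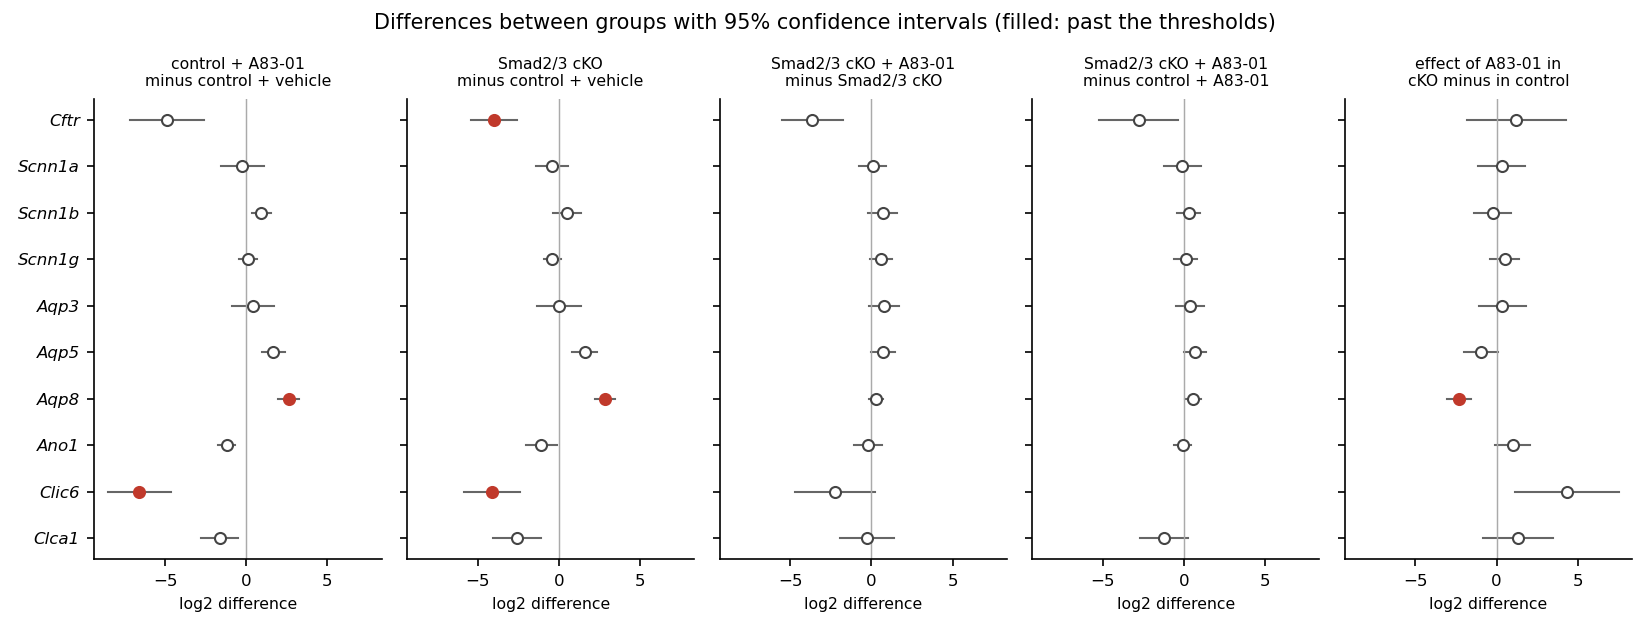
Log2 differences between groups with 95% confidence intervals from limma for each gene and comparison, the last panel being the effect of A83-01 in *Smad2/3* cKO minus its effect in control organoids. Filled points passed the thresholds: *Aqp8* and *Clic6* in the first panel, *Cftr*, *Aqp8* and *Clic6* in the second, and *Aqp8* in the last. *Clic6* was too low to test in the fourth.

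*Cftr* (ENSMUSG00000041301), on chromosome 6 of GRCm38 from 18170687 to 18322768, encodes the cAMP-gated anion channel that is mutated in cystic fibrosis. Control + vehicle samples held 1319, 1903 and 1622 normalized counts. Control + A83-01 samples held 88.6, 320, 36.2 and 7.39, and *Smad2/3* cKO samples 26.8, 249, 152 and 89.6. Every sample of these groups lay below every control + vehicle sample, and the values within each treated or mutant group spread over a far wider fold range than the controls. In *Smad2/3* cKO organoids the mean was 129 ± 94.7 (SD, n = 4) against 1615 ± 292 (SD, n = 3) in control + vehicle, and the log2 fold change was −4.01 (SE 0.63, limma adjusted p = 0.00361). With A83-01 the mean was 113 ± 142 (SD, n = 4) and the log2 difference −4.87 (SE 1.00), which missed the threshold (adjusted p = 0.0225). In the fit that pairs control samples with the same replicate number the difference was −3.97 (SE 0.50) and passed (adjusted p = 0.00567), as it did without control + A83-01 replicate 2, the highest of its group (−5.72, adjusted p = 0.00454). The call in *Smad2/3* cKO was lost when any of the control + vehicle replicates 1, 2 or 3 or *Smad2/3* cKO replicate 4 was left out, with differences of −4.15, −3.88, −4.00 and −3.97 and adjusted p of 0.0169, 0.0202, 0.0111 and 0.0113. Without *Smad2/3* cKO replicate 2 the call stayed. It was also lost when the variance trend was left out (adjusted p = 0.0148), with the replicate block (0.0121) and with all 4 groups in the fit (0.0146), where in turn the fall with A83-01 passed (adjusted p = 0.00738). By an exact two-sided permutation test of this gene alone, p was 0.0571 in each comparison, the smallest that 3 samples against 4 allow.

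The 250 bases before the RefSeq start of *Cftr* are shown because this gene had among the largest falls of the set and its upstream sequence can be read for sites of the factors under study. They lie on the plus strand at chr6:18170437-18170686 of GRCm38.p6, and the capitals mark the only motif found there.
Cftr: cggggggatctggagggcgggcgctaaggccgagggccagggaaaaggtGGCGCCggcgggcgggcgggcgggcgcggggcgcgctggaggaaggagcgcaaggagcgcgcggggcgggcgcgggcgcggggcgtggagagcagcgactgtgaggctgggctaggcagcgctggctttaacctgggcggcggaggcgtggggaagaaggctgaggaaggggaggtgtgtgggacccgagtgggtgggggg
The motifs searched on both strands were GTCTAGAC and CAGAC, forms of the SMAD box, GGCGCC, a GC-rich SMAD site, AGGTCA, a nuclear receptor half-site, and TGTTTAC, a forkhead site. The window is 76.4% G and C and holds GGCGCC once, 201 bases before the start. Of 32851 RefSeq promoter windows of this length, 9.59% hold GGCGCC, 42.2% CAGAC, 14% AGGTCA, 3.17% TGTTTAC and 0.167% GTCTAGAC. A match of letters is a description and not a bound site.

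*Ano1* (ENSMUSG00000031075), on chromosome 7 from 144588549 to 144751974, encodes the calcium-activated chloride channel TMEM16A. It was at 2842, 4045 and 2936 in control + vehicle and at 964, 1601, 1696 and 1542 in control + A83-01 samples, without overlap. In *Smad2/3* cKO samples it was at 1107, 2269, 2891 and 767, of which 1 lay within the control + vehicle range. The difference with A83-01 was −1.19 (SE 0.23, limma adjusted p = 0.0180), and −1.23 (SE 0.18, adjusted p = 0.00830) in the paired fit, where it passed. The difference in *Smad2/3* cKO organoids was −1.07 (SE 0.42, adjusted p = 0.105).

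*Clca1* (ENSMUSG00000028255), on chromosome 3 from 145003817 to 145032776, encodes a secreted protein of mucous cells that raises calcium-activated chloride currents. It was at 491, 416 and 361 in control + vehicle samples. Control + A83-01 samples held 162, 330, 59.8 and 103, and *Smad2/3* cKO samples 17.2, 104, 166 and 79.3. Both groups lay below control + vehicle without overlap, by −1.63 (SE 0.51, adjusted p = 0.0933) with A83-01 and by −2.56 (SE 0.65, adjusted p = 0.0251) in *Smad2/3* cKO organoids. The latter passed without *Smad2/3* cKO replicate 1, the lowest sample (−1.91, adjusted p = 0.00857). The 5 goblet or mucous cell markers in the table, of 6 listed, were nearly all *Fcgbp* and summed to 16007 to 23523 with vehicle and 2312 to 16435 with A83-01 in control organoids, and to 4441 to 42303 in *Smad2/3* cKO organoids. *Muc2* was listed at 0 in the 3 control + vehicle samples and *Spdef* in the 4 control + A83-01 samples. From control + vehicle to *Smad2/3* cKO the medians of *Agr2* (97.4 to 153), *Muc5b* (1.93 to 10.9) and *Muc2* (0 to 7.66) went up. Those of *Fcgbp* (16914 to 13178) and *Spdef* (2.70 to 2.42) went down. Their part in the *Clca1* values was not tested.

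*Clic6* (ENSMUSG00000022949), on chromosome 16 from 92485736 to 92541243, encodes a member of the chloride intracellular channel family. Control + vehicle samples held 120, 261 and 591, which is a wide range. Control + A83-01 samples held 8.80, 2.15, 0.929 and 0, and *Smad2/3* cKO samples 4.77, 25.0, 38.5 and 8.41. The groups did not overlap, and 3 of the 4 control + A83-01 values lay below 3 normalized counts. The log2 fold change was −6.58 (SE 0.87, limma adjusted p = 0.00350) with A83-01 and −4.11 (SE 0.76, adjusted p = 0.00696) in *Smad2/3* cKO organoids. At counts this low the size is not fixed: with pseudocounts of 0.1 and 10 and the other alternatives the difference with A83-01 ran from −7.79 to −4.46. These calls stood close to the threshold. The former was lost with a pseudocount of 0.1 or with no filter on low values (adjusted p = 0.0161 and 0.0127), and the latter with no filter, no trend or all 4 groups in the fit (0.0133, 0.0197 and 0.0169). That for A83-01 was lost without control + vehicle replicate 1, 2 or 3 (−7.15, −6.59 and −6.00, adjusted p = 0.0142, 0.0256 and 0.0179) or control + A83-01 replicate 3 (−6.41, adjusted p = 0.0101). That for *Smad2/3* cKO was lost without control + vehicle replicate 1, 2 or 3 (−4.68, −4.12 and −3.54, adjusted p = 0.0154, 0.0323 and 0.0253) and without *Smad2/3* cKO replicate 1, 2 or 4 (−3.64, −4.37 and −3.88, adjusted p = 0.0135, 0.0112 and 0.0203).

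Of the ENaC genes none was called. *Scnn1b* (ENSMUSG00000030873), on chromosome 7 from 121865038 to 121918514, was at 2781, 2408 and 3777 in control + vehicle and at 4825, 3872, 6896 and 7605 in control + A83-01. The groups did not overlap, and the difference was 0.93 (SE 0.26, adjusted p = 0.0694), or 0.78 (SE 0.12, adjusted p = 0.0113) in the paired fit. *Smad2/3* cKO samples, at 1980, 4169, 5198 and 7310, lay on both sides of the control range (0.52, SE 0.38, adjusted p = 0.377). *Scnn1g* (ENSMUSG00000000216) lies 96.562 kb before *Scnn1b* on the same strand, from 121734479 to 121768475. It was at 528, 484 and 445 in control + vehicle, 434, 395.2, 642 and 690 in control + A83-01 and 257, 347, 463 and 450 in *Smad2/3* cKO samples, and overlapped in each comparison. Its differences were 0.12 (95% interval −0.44 to 0.67) with A83-01 and −0.39 (−0.92 to 0.13) in *Smad2/3* cKO organoids. *Scnn1a* (ENSMUSG00000030340), on chromosome 6 from 125320659 to 125344943, encodes the α subunit, without which the channel conducts little sodium. It was low everywhere, at 30.4 to 70.0 in control + vehicle, 17.6 to 83.4 in control + A83-01 and 28.5 to 45.7 in *Smad2/3* cKO samples. Its differences were −0.24 (95% interval −1.55 to 1.07) and −0.41 (−1.38 to 0.55), intervals too wide to exclude a change by the fold threshold in either direction.

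*Aqp8* (ENSMUSG00000030762), on chromosome 7 from 123462291 to 123468004, encodes a water channel that also passes ammonia and hydrogen peroxide. Control + vehicle samples held 10445, 10792 and 20208. Control + A83-01 samples held 83586, 59178, 81671 and 101736, and *Smad2/3* cKO samples 107821, 80271, 79691 and 117605. The lowest of these 8 samples was well above the highest control + vehicle sample. With A83-01 the mean was 81543 ± 17437 (SD, n = 4), against 13815 ± 5539 (SD, n = 3) with vehicle, and the log2 fold change was 2.61 (SE 0.29, limma adjusted p = 0.00178). In *Smad2/3* cKO organoids the mean was 96347 ± 19317 (SD, n = 4) and the log2 fold change 2.85 (SE 0.27, adjusted p = 0.000423). The gene held 0.0464% to 0.0973% of all counts of a control + vehicle sample and 0.353% to 0.516% in *Smad2/3* cKO samples, where it was between the 8th and the 14th most abundant gene. The call with A83-01 was lost without control + vehicle replicate 1 or 2 (2.44 and 2.46, adjusted p = 0.0138 and 0.0139). That in *Smad2/3* cKO organoids stayed without each sample in turn, with adjusted p of at most 0.00395.

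The upstream sequence of *Aqp8* is shown as that of the member with the highest counts and with calls in both comparisons. The 250 bases lie on the plus strand at chr7:123462044-123462293 of GRCm38.p6.
Aqp8: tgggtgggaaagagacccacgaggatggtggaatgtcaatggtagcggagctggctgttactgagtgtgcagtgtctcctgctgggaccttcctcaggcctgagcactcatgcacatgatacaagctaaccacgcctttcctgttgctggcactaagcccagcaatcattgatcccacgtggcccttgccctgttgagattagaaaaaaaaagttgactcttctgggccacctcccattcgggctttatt
It is 52.4% G and C, and none of the 5 motifs named above occurs in these letters, which says nothing of any factor. Windows were at hand for 7 of the 10 genes. GGCGCC occurs in the window of *Aqp3* too, at −22, CAGAC in those of *Aqp5* and *Scnn1g*, at −122 and −60, and AGGTCA in that of *Scnn1b*, at −132, while the window of *Ano1* holds none. *Scnn1a*, *Clic6* and *Clca1* were not searched. The window of *Ano1*, on the minus strand at chr7:144738574-144738823, lies inside the gene span given above. That of *Aqp5*, at chr15:99590778-99591027, lies almost wholly inside the span given for that gene. Both come before RefSeq starts within those spans, and not before the outer ends of the genes. The *Aqp8* window ends at 123462293, just inside the span given for that gene, which starts at 123462291.

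*Aqp5* (ENSMUSG00000044217), on chromosome 15 from 99590782 to 99594829, encodes the water channel of the apical membrane of secretory glands. It was at 9762, 6814 and 9136 in control + vehicle, 26992, 15213, 30393 and 41261 in control + A83-01 and 13146, 24439, 36508 and 37122 in *Smad2/3* cKO samples. Neither of the latter groups overlapped with control + vehicle. The differences of 1.66 (SE 0.32, limma adjusted p = 0.0166) and 1.60 (SE 0.34, adjusted p = 0.0132) missed the threshold. The former passed in the paired fit (1.45, SE 0.16, adjusted p = 0.00348) and without control + A83-01 replicate 2 (1.93, adjusted p = 0.00341), and the latter without *Smad2/3* cKO replicate 1 (1.92, adjusted p = 0.00211). With all 4 groups in the fit both passed (adjusted p = 0.00855 and 0.00680). Of 6 listed endometrial gland markers, 5 were in the table. *Prss29* was at 0 in control + vehicle, 16.3 to 322 in control + A83-01 and 188 to 6403 in *Smad2/3* cKO samples. Medians in these groups were 7.84, 34.5 and 46.2 for *Cxcl15* and 0, 2.88 and 3.37 for *Prss28*. For *Foxa2* they were 200, 201 and 163, and for *Lif* 1513, 1438 and 1164. The part of these markers in the *Aqp8* and *Aqp5* values was not tested. *Aqp3* (ENSMUSG00000028435), on chromosome 4 from 41092722 to 41098183, encodes a channel for water and glycerol. It was at 13.6, 22.6 and 69.5 in control + vehicle, 32.4 to 47.7 in control + A83-01 and 18.2 to 38.4 in *Smad2/3* cKO samples, so that the control + vehicle samples spanned both other groups. Its differences were 0.42 (95% interval −0.89 to 1.72) and −0.01 (−1.36 to 1.34).

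Control + A83-01 replicates 1, 2 and 3 carry the same label numbers as control + vehicle replicates 1, 2 and 3. The labels do not say what these numbers mark, and that of replicate 1 is also on *Smad2/3* cKO replicate 1, of the other genotype. In these 3 pairs *Aqp8* changed by 3.00, 2.45 and 2.01 on the log2 scale, *Aqp5* by 1.47, 1.16 and 1.73, and *Scnn1b* by 0.79, 0.68 and 0.87. *Cftr* changed by −3.88, −2.57 and −5.45, *Clic6* by −3.63, −6.38 and −8.26, *Clca1* by −1.59, −0.33 and −2.57, and *Ano1* by −1.56, −1.34 and −0.79. These 7 genes each moved the same way in 3 of 3 pairs, whereas *Aqp3* and *Scnn1g* did not. *Scnn1a* changed by 0.25, 0.04 and 0.14, small rises in every pair where the unpaired difference was below 0. That made 8 of 10 genes, where 49.6% of all genes tested moved 1 way in the 3 pairs. With pairing, 5 of the 10 genes passed the thresholds, *Aqp8* and *Aqp5* higher and *Cftr*, *Clic6* and *Ano1* lower, where 3.07% of all genes were called, 1.62% higher and 1.45% lower.

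**Figure D3:**
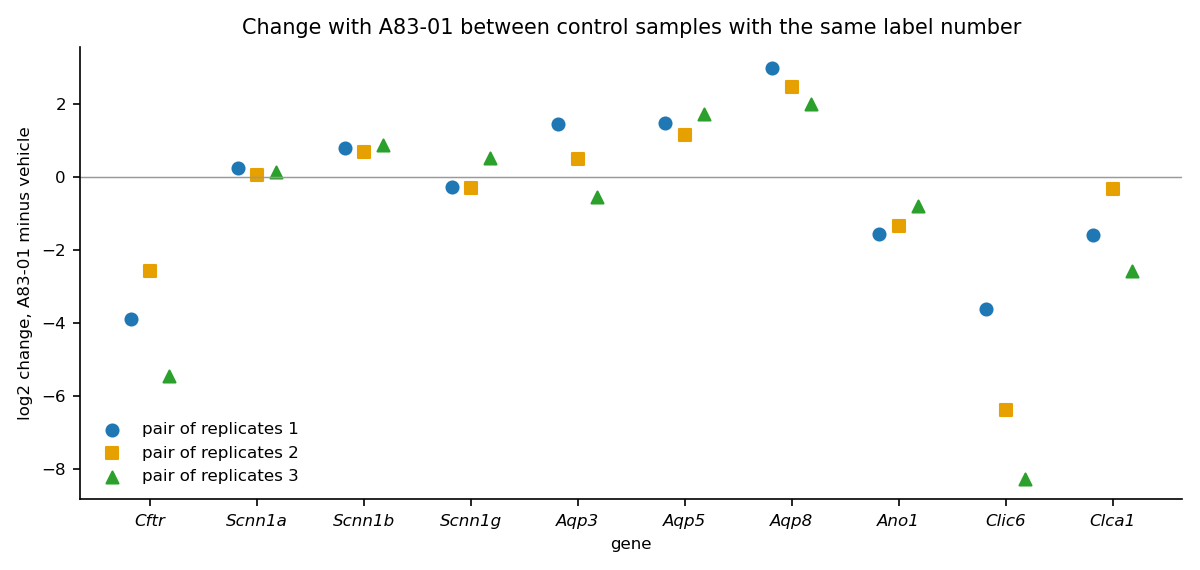
Log2 change of the normalized count plus 1 from vehicle to A83-01 between control samples with the same label number, for the 10 genes. Each symbol is 1 of 3 pairs. *Aqp8* rose by 2.01 to 3.00 and *Cftr* changed by −5.45 to −2.57, with no pair on the other side of 0.

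When A83-01 was given to *Smad2/3* cKO organoids, made from mice that delete the genes of 2 factors which the blocked receptors phosphorylate, none of the 10 genes passed the thresholds, and neither did any of the 12998 genes tested (0% called). At an unadjusted limma p under 0.05 there were 554 genes (4.26%), among them 1 of the 10. That gene was *Cftr*, which was at 26.8, 249, 152 and 89.6 in *Smad2/3* cKO and at 19.8, 1.33, 14.7 and 4.12 in *Smad2/3* cKO + A83-01 samples. Every sample with A83-01 lay below every sample without it, a pattern seen in 1.02% of all genes (2.9% in either direction). The mean was 129 ± 94.7 (SD, n = 4) without and 9.98 ± 8.71 (SD, n = 4) with A83-01. The log2 difference of −3.65 (SE 0.84, 95% interval −5.53 to −1.77) was the second largest fall of all genes tested, with a limma adjusted p of 0.994. An exact two-sided permutation test gave p = 0.0286, the smallest that 4 samples against 4 allow. That value follows from the separation by which the gene was picked out, and adds no further support. The log2 difference stayed below 0 in every alternative, from −4.26 to −3.06 when each sample was left out in turn. In the other alternatives it ran from −3.91 to −2.59, so at the low counts with A83-01 its size is not fixed.

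The other 9 genes overlapped between these groups. *Aqp8* was at 109637, 129819, 109790 and 120336 with A83-01, a difference from *Smad2/3* cKO of 0.30 (95% interval −0.12 to 0.73). *Aqp5* was at 47029, 28774, 50161 and 47366 (0.72, −0.01 to 1.45), *Scnn1b* at 7821, 3639, 8842 and 8549 (0.69, −0.20 to 1.58) and *Scnn1g* at 468, 359, 946 and 635 (0.61, −0.07 to 1.29). *Aqp3* was at 35.3 to 86.2 (0.77, −0.14 to 1.68) and *Scnn1a* at 23.6 to 53.9 (0.08, −0.76 to 0.91). *Ano1* was at 1039 to 1940 (−0.20, −1.07 to 0.67), *Clca1* at 19.9 to 145 (−0.30, −1.96 to 1.36) and *Clic6* at 4.41, 0, 19.8 and 0 (−2.24, −4.71 to 0.24). A change of the size of the fold threshold lies inside each of these intervals, so the lack of calls does not show that A83-01 was without effect on these genes in mutant organoids.

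The effect of A83-01 differed between genotypes for *Aqp8* alone among the 10 genes. The difference of the log2 effects, *Smad2/3* cKO minus control, was −2.30 (SE 0.34, 95% interval −3.03 to −1.57, limma adjusted p = 0.00268), where 0.551% of 13066 genes were called, 0.452% with the lower effect in the mutant. It rests on the control + vehicle samples: without replicate 1 or 2 of that group it was −2.14 and −2.16, with adjusted p of 0.0101 and 0.0118. *Aqp8* in *Smad2/3* cKO organoids without A83-01 (79691 to 117605) overlapped with the treated controls (59178 to 101736). For *Cftr* the difference of effects was 1.22 (95% interval −1.82 to 4.25), which includes no difference as well as large ones. *Clic6*, at 4.34 (1.15 to 7.54, unadjusted p = 0.0110, adjusted p = 0.179), had values close to 0 in both treated groups, and *Aqp5*, at −0.94 (SE 0.50, adjusted p = 0.427), did not pass.

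Between genotypes under A83-01, *Smad2/3* cKO + A83-01 against control + A83-01, 9 of the 10 genes could be tested, *Clic6* having too low a mean, and 0 were called by limma (0.0232% of 12915 genes). At an unadjusted p under 0.05 there were 2, among 1229 (9.52%) of all genes. *Aqp8* was higher by 0.55 (SE 0.21, 95% interval 0.07 to 1.02, adjusted p = 0.444) with no overlap between 59178 to 101736 and 109637 to 129819, a separation that 3.38% of all genes showed (6.12% in either direction). *Cftr* was lower by −2.79 (SE 1.10, adjusted p = 0.457), with overlapping values, 7.39 to 320 in the control organoids and 1.33 to 19.8 in the mutant ones.

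Levels of different genes were set side by side per kilobase of the longest coding transcript in the GRCm38 annotation. In control + vehicle *Aqp8* came first with 7024 to 13590 normalized counts per kb, then *Aqp5* with 3792 to 5432, *Scnn1b* with 972 to 1524, *Ano1* with 620 to 882, *Cftr* with 209 to 302 and *Scnn1g* with 149 to 177, none of which overlapped its neighbour. *Clca1* (98.7 to 134), *Clic6* (32.0 to 157), *Aqp3* (7.70 to 39.4) and *Scnn1a* (8.70 to 19.995) followed, each overlapping the next. The first 4 places were the same in every group. *Cftr* stood in place 8 in control + A83-01, in place 7 in *Smad2/3* cKO and in place 10 in *Smad2/3* cKO + A83-01, where it held 0.211 to 3.14 per kb. *Scnn1g* exceeded *Scnn1a* in every sample, by 6.09 to 45.8 times per kb, and *Scnn1b* exceeded *Scnn1a* by 56.1 to 610 times. Within single samples the ratio of *Aqp8* to *Cftr* per kb was 24.03 to 52.8 with vehicle and 785 to 58351 with A83-01 in control organoids. The same ratio was 1367 to 17041 with vehicle and 23474 to 414610 with A83-01 in mutant organoids.

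The genes most like a called member were taken as those with the highest Pearson r of log2 values over the 15 samples among 13066 genes, a description of samples that share their groups. *Aqp8* was most like *Napsa* (r = 0.993), an aspartic protease gene, *Tmed6* (0.990), a gene of the p24 family of secretory transport proteins, and *Ctsb* (0.988), which encodes the lysosomal protease cathepsin B. *Cftr* was most like *Nfib* (0.958), a transcription factor gene, *Pik3r5* (0.945), which encodes a regulatory subunit of phosphoinositide 3-kinase, and *Csgalnact1* (0.936), an enzyme gene of chondroitin sulfate synthesis. *Clic6* was most like *Cyp21a1* (0.941), the steroid 21-hydroxylase gene, *4930402H24Rik* (0.913) and again *Pik3r5* (0.912). Among the 10 genes *Cftr* and *Clic6* had r = 0.861, *Scnn1b* and *Aqp5* 0.876, *Aqp5* and *Aqp8* 0.845, and *Cftr* and *Aqp8* −0.846, while *Scnn1g* and *Aqp8* were unrelated (0.0018).

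Other genes of salt and water transport were read from 5 lists of 117 genes, of which 99 were in the table and 82 had enough counts to be tested in the comparisons with control + vehicle. With A83-01, 1 was higher and 2 lower (2.27% of all genes were called), and the median log2 fold change was −0.05 beside −0.02 over all genes. In *Smad2/3* cKO organoids 1 was higher and 8 lower (7.38% of all genes), with a median of −0.04 beside 0.00. None was called in *Smad2/3* cKO + A83-01 against either *Smad2/3* cKO or control + A83-01, or in the difference between genotypes.

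*Sgk1*, the kinase that keeps ENaC at the cell surface, was the single gene of the lists called higher. It was at 2069, 1506 and 1698 in control + vehicle, 3456 to 5000 in control + A83-01 and 5360 to 10407 in *Smad2/3* cKO samples, with log2 fold changes of 1.27 (SE 0.18, limma adjusted p = 0.00467) and 2.05 (SE 0.24, adjusted p = 0.00104). The other 17 tested regulators of ENaC, its proteases and ubiquitin ligases among them, were not called in either comparison. The call of *Sgk1* with A83-01 was lost in 5 of 7 fits with a sample left out, among them each that left out a control + vehicle sample (adjusted p up to 0.0320), and that in *Smad2/3* cKO organoids in none. In the 10 other alternatives the former was lost in 2 (limma adjusted p up to 0.0153) and the latter in 0.

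Of the aquaporins outside the 10 genes, 3 had enough counts, and all are named for that reason. *Aqp4*, a water channel, was at 611, 264 and 928 in control + vehicle, 14.3, 1.18, 35.5 and 44.8 in control + A83-01 and 86.5, 18.9, 56.0 and 95.3 in *Smad2/3* cKO samples, a fall of 3.26 on the log2 scale in the latter (SE 0.60, limma adjusted p = 0.00693). With A83-01 its difference was −5.11 (SE 0.99, adjusted p = 0.0175), or −5.64 (SE 0.50, adjusted p = 0.00170) in the paired fit. The call for *Aqp4* in *Smad2/3* cKO organoids was lost in 6 of 7 fits with a sample left out (−3.76 to −2.77 over all 7, adjusted p up to 0.0352), *Smad2/3* cKO replicate 2, its lowest sample there, being the exception. That call was also lost in 3 of the 10 other alternatives (limma adjusted p up to 0.0212). *Aqp2* was at 0 to 4.42 in control + vehicle and at 7.91 to 39.3 and 25.3 to 65.8 in the other 2 groups, and was not called (adjusted p = 0.0766 and 0.0132). *Aqp11* was at 18.7 to 30.4, 44.8 to 65.5 and 14.1 to 43.9 (adjusted p = 0.134 and 0.868).

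Among 20 tested genes of cAMP-dependent chloride and bicarbonate secretion, *Slc4a11*, an SLC4-family transporter, fell from 3088, 4642 and 4288 in control + vehicle to 1093 to 1450 with A83-01 (−1.70, SE 0.19, limma adjusted p = 0.00170) and to 559 to 943 in *Smad2/3* cKO samples (−2.38, SE 0.21, adjusted p = 0.000304). *Slc4a4*, the sodium bicarbonate cotransporter, fell by 1.59 on the log2 scale in *Smad2/3* cKO organoids (SE 0.29, adjusted p = 0.00670). The remaining 18 were called in neither comparison. Of 32 tested calcium-activated and other chloride channel genes, *Ttyh3*, of the tweety family, was at 249 to 269 in control + vehicle, 32.1 to 87.5 in control + A83-01 and 28.2 to 52.2 in *Smad2/3* cKO samples (−2.23 and −2.58, adjusted p = 0.00972 and 0.00112). *Lrrc8c*, a subunit of the volume-regulated anion channel, was at 296 to 401, 72.7 to 200 and 14.2 to 46.6 (−1.65, adjusted p = 0.0309, and −3.49, adjusted p = 0.00128). In *Smad2/3* cKO organoids *Ano8*, *Lrrc8e* and *Tmem206*, the last encoding a proton-activated chloride channel, fell by 1.17, 1.07 and 1.05. The call of *Slc4a11* with A83-01 was lost without control + vehicle replicate 2 (−1.58, adjusted p = 0.0136), that of *Lrrc8c* in *Smad2/3* cKO organoids likewise (−3.37, adjusted p = 0.0104), and that of *Ttyh3* with A83-01 in 6 of 7 fits (adjusted p up to 0.0583). In the 10 other alternatives *Ttyh3* lost its call in 5 with A83-01 (limma adjusted p up to 0.0240) and in 1 in *Smad2/3* cKO organoids (0.0131). The calls of *Slc4a11* in both comparisons, and of *Lrrc8c* in *Smad2/3* cKO organoids, stayed in all 10. None of the 9 tested genes of the sodium pump and its FXYD partners was called.

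**Figure D4:**
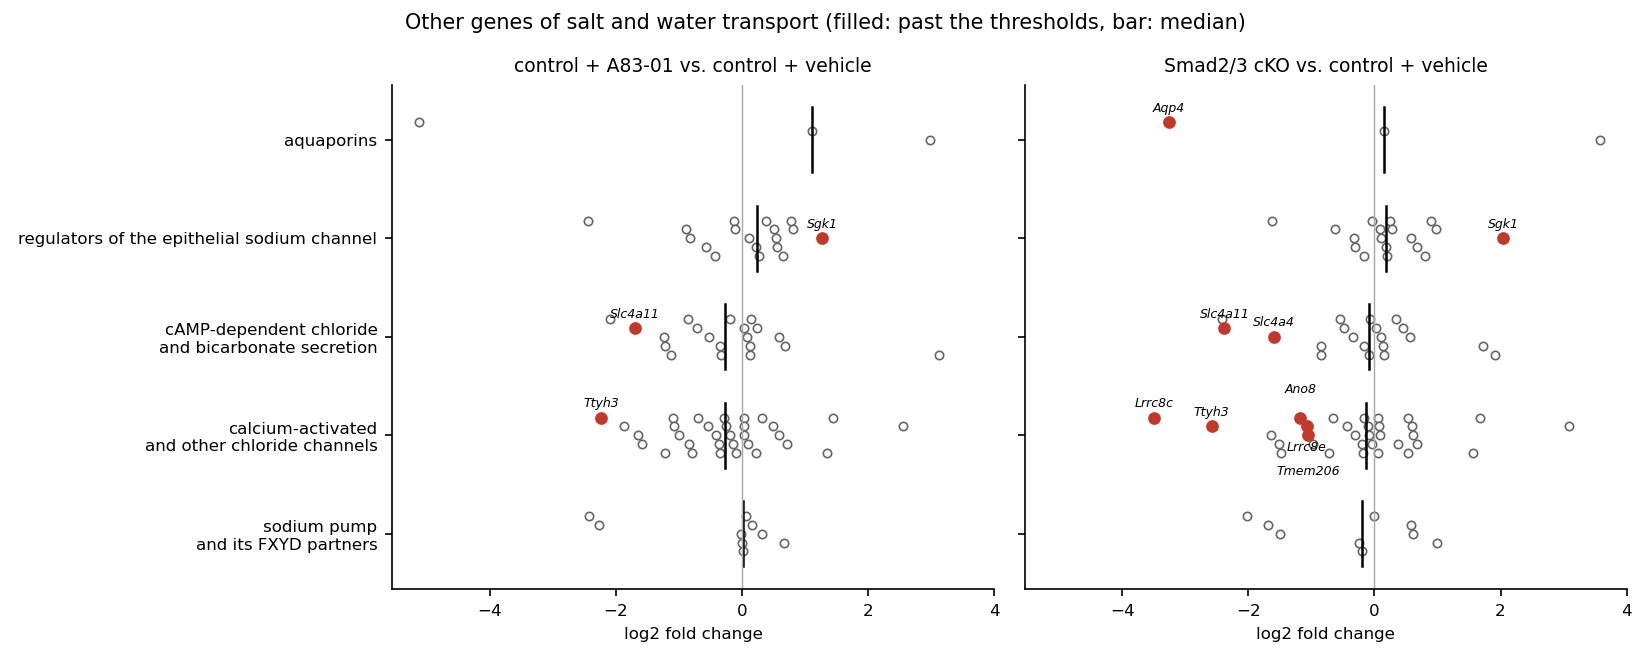
Log2 fold change of each tested gene of the 5 transport lists (rows) in control + A83-01 vs. control + vehicle (left) and *Smad2/3* cKO vs. control + vehicle (right). Open points missed the thresholds, filled and named points passed, and black bars are list medians. Filled points are 1 higher and 2 lower on the left and 1 higher and 8 lower on the right.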

How the data were processed

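RNA from mouse endometrial organoids was made into cDNA with an ultra low input kit and sequenced. Per the labels and methods, reads were counted with Salmon 1.4.0 against GRCm39 and normalized with DESeq2 1.32.0. The values the authors deposited, named signal here, are estimated counts scaled by a size factor for each sample. Only 7.63% to 12.7% of a sample's values below 12 were near whole multiples of its smallest step (tolerance 0.05 of a step), so reads could not be recovered and no count model was used. Comparisons were fitted on their own samples with limma 3.58.1 (eBayes with trend, R 4.3.3). The fit used log2 values after a pseudocount of 1 was added, took genes averaging 10 or more in those samples, and applied the Benjamini-Hochberg adjustment over all of them. The difference between genotypes used all 15 samples.

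The 10 genes, the gene lists and the tests were chosen with earlier results of these data known. Also named were *Smad2*, *Smad3*, at most 5 called genes of the transport lists per comparison by size of change (others where few), and the 3 genes most like each called member. Control + vehicle and control + A83-01 samples with the same number in the labels, of which the meaning is not stated, were paired in an alternative fit with a replicate block. There the fourth control + A83-01 sample lacked a partner. Deviations from the group means correlated at 0.354 to 0.423 for the 3 pairs. The average of −0.133 for unmatched samples is no separate comparison. Deviations cancel within each group, so pairs above 0 push the others below 0. The labels do not state separate cultures, so p-values measure the spread between these samples. Positions are from the GRCm38 annotation and promoters from RefSeq on GRCm38.p6, not from the build used for counting. Alternatives were other pseudocounts (0.1, 10), filters (none, 50), quantile normalization, no trend, the replicate block and a covariate for the series of label numbers. Also used were a joint fit of all groups, an adjusted p of 0.05, and leaving out each sample. The number series was split at a label number of 390. All *Smad2/3* cKO + A83-01 samples (369 to 373) lay below it, and each other group had samples on both sides. Differences with that group are therefore partly confounded with the series. The fits were also run on simulated data with independent noise, in which only genes averaging at least 50 were changed. Those runs say nothing of changes in genes at low counts or of paired samples.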

Additional observations from a re-analysis of the deposited data

Results flagged for a closer look

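In 3 of 30 combinations of gene and group with 4 samples, 1 sample lay apart by Dixon's criterion, where chance gives about 1 in 20. *Scnn1b* and *Aqp5* each had *Smad2/3* cKO + A83-01 replicate 2 as the lowest sample of its group, at 3639 and 28774 normalized counts. *Ano1* had control + A83-01 replicate 1 as the lowest, at 964. The effect of A83-01 on *Aqp8* differed between genotypes by −2.30 on the log2 scale, by the test of that difference. No explanation of these values was tested.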

How the results depend on the processing

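For the 10 genes, 49 differences were recomputed in 910 settings, of which 837 kept the direction and the side of the thresholds, 26 lost the call, 16 gained one and 31 changed sign. With A83-01 in control organoids, 2 of the 10 genes were called, but 1 with a pseudocount of 0.1 or no filter on low values, 5 with the replicate block or at an adjusted p of 0.05, and 4 with all 4 groups in the fit. In that comparison 295 genes were called, 146 without the filter, 443 with the number series as a covariate, 642 with all 4 groups in the fit and 955 at an adjusted p of 0.05. With each sample left out in turn, 0 to 4 of the 10 genes and 49 to 312 of all genes were called. All genes called numbered 53, 49 and 128 without control + vehicle replicate 1, 2 and 3, and 140 and 116 without control + A83-01 replicate 3 and 4. For *Smad2/3* cKO against control + vehicle, 3 of the 10 genes and 970 of all were called. Without the trend these were 1 and 452, and at an adjusted p of 0.05 they were 5 and 2410. Leaving out samples gave 1 to 4 of the 10 genes and 280 to 992 of all, with 280 and 288 without control + vehicle replicate 1 and 2 and 524 and 443 without *Smad2/3* cKO replicate 1 and 4. For *Smad2/3* cKO + A83-01 against control + A83-01, 3 of all genes were called, with 0 when unfiltered or blocked, 1 without the trend, 72 with the number series, 5 in the joint fit and 0 to 4 when samples were left out. For the difference between genotypes, 72 genes were called, 208 at an adjusted p of 0.05 and 39 to 77 when samples were left out, and 0 to 1 of the 10 genes. The cause was not tested.

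The sign turned for some of the differences that were not called. With the replicate block *Scnn1a* was at 0.14 and *Scnn1g* at −0.0161 with A83-01 in control organoids. With the number series as a covariate the difference between genotypes was −0.18 for *Scnn1a* and 0.32 for *Scnn1b*, *Clca1* was at 0.40 with A83-01 in *Smad2/3* cKO, and *Ano1* at 0.11 between genotypes under A83-01. With quantile normalization *Aqp3* was at 0.0915 in *Smad2/3* cKO. When samples were left out, the difference with A83-01 in control organoids ran from −0.58 to 0.14 for *Scnn1a*, −0.0161 to 0.25 for *Scnn1g* and −0.0777 to 1.06 for *Aqp3*. For *Smad2/3* cKO against control + vehicle it ran from −0.50 to 0.63 for *Aqp3* and −0.18 to 0.0685 for *Smad3*. With A83-01 in *Smad2/3* cKO it was −0.0945 to 0.29 for *Scnn1a*, −0.53 to 0.11 for *Ano1* and −0.96 to 0.19 for *Clca1*. Between genotypes under A83-01 it was −0.48 to 0.25 for *Scnn1a*, −0.15 to 0.32 for *Scnn1g* and −0.27 to 0.0417 for *Ano1*. For the difference between genotypes it was −0.0675 to 0.66 for *Scnn1a*, −0.60 to 0.0655 for *Scnn1b* and −0.29 to 0.85 for *Aqp3*.

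In the other comparisons the replicate block follows the replicate number, which mostly differs from the label number. Samples with the same replicate number had a mean correlation of deviations of 0.0564 for *Smad2/3* cKO and control + vehicle, where 211 genes were called with the block, and 0.130 for *Smad2/3* cKO + A83-01 and *Smad2/3* cKO. In each of these comparisons 1 pair shared a label number. It was replicate 1 of both groups in the former (0.0774), and *Smad2/3* cKO replicate 2 with *Smad2/3* cKO + A83-01 replicate 1 in the latter (0.355), a pair that the block did not match. With 1 such pair no fit by label number was possible. The deposited values hold no read depth, so counting error could not be given. Low values are the least certain, such as those of *Clic6*, *Scnn1a* and *Aqp3*, and of *Cftr* in *Smad2/3* cKO + A83-01. Estimated counts of whole genes do not separate isoforms. With 3 or 4 samples a group, a single gene cannot reach an exact permutation p below 0.0571 against control + vehicle.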
